A study of Mus musculus with 6 samples.

Results

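The interleukin 6 family and the STAT3 signalling genes at its core were followed in small intestinal tumours of mice in which both atypical protein kinase C genes were targeted for deletion in the gut epithelium. The 10 genes, taken by symbol from the deposited count table of 23393 named genes, are the ligands Il6, Il11, Lif and Osm, the receptor chains Il6ra, Il11ra1, Il6st and Osmr, the transcription factor gene Stat3 and its feedback inhibitor Socs3. All 10 were in the table.

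Poly(A) RNA of whole tissue from C57BL/6 mice aged 12 weeks was sequenced in 6 libraries. The 3 DKO tumour libraries came from small intestinal tumours of Villin-Cre-positive mice with floxed alleles of PKC lambda (Prkci) and PKC zeta (Prkcz). The 3 WT intestine libraries came from small intestine of Villin-Cre-negative mice that carried the same floxed alleles. Villin-Cre acts in epithelium only, so stroma and immune cells of the tumours keep both genes, and genotype and tumour tissue changed together and cannot be told apart. The labels do not say that each library came from a separate mouse, so the p-values measure the spread between these libraries.

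Cytokines of this family share the signal-transducing chain gp130, encoded by Il6st. Interleukin 6 and interleukin 11 first bind their own alpha receptors, whereas leukaemia inhibitory factor and oncostatin M signal through gp130 paired with the LIF receptor or, for oncostatin M in the mouse, the oncostatin M receptor. JAK kinases bound to the receptors phosphorylate STAT3, which enters the nucleus and switches on genes of survival, repair and the acute phase response, among them Socs3, whose product binds gp130 and stops the signal. In the intestine the pathway is known for epithelial regeneration after injury and for tumour growth.

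Values of single libraries are given in the order of replicates 1, 2 and 3 throughout. Library totals ranged from 12491561 to 15799269 counts. DKO tumours and WT intestine parted along principal component 1, which carried 71.4% of the variance. Of the targeted genes, Prkcz was at 19.3, 16.4 and 14.7 CPM in the DKO tumours and at 70.04, 69.7 and 60.8 CPM in the WT intestines (log2 fold change -1.99, edgeR adjusted p = 0.000233), whereas Prkci was at 97.98, 80.3 and 103.2 CPM in the tumours and 53.2, 80.6 and 77.6 CPM in WT intestine. CPM are counts relative to library size, with the libraries set against each other by TMM, which is based on the genes that differ least. Whole-gene Prkci counts from mixed tissue do not show whether the floxed exon was removed. In whole tissue, fewer cells of a type and less RNA per cell cannot be told apart.

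Sequences around the starts of these genes are shown first, because Il11, Lif, Il6 and Osmr, described below, have a motif in common there. RefSeq windows on GRCm38.p6, from 250 bases before to 50 bases after a transcription start, matched 9 of the 10 genes (11 windows), all but Osm. They were searched for TGANTCA, the core of the AP-1 site, and for TTCNNNGAA, the core of the STAT site. Each motif reads the same on both strands, so both strands were covered by 1 search, and no window held both. TGANTCA stood in a window of Il11, Osmr, Lif and Il6, and in 7.81% of all 32851 windows. TTCNNNGAA stood in the Socs3 window and in 8.3% of all windows. Stretches with up to 10 bases on each side of the motif follow, 5′ to 3′ on the gene's strand, with the motif in capitals.
Il11, chr7:4778223-4778249, minus strand, motif 98 bases before the start: ggagggagggTGAGTCAggatgtgtca
Osmr, chr15:6874294-6874320, minus strand, motif from base 4 after the start: gccccgtagtTGATTCAtagctggggc
Lif, chr11:4257330-4257356, plus strand, motif 228 bases before the start: cagtcagctgTGACTCAggccatagtg
Il6, chr5:30012864-30012881, plus strand, motif 249 bases before the start: cTGAGTCActtttaaaga
Socs3, chr11:117969502-117969530, minus strand, motif 154 bases before the start: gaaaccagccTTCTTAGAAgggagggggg
The Osmr stretch lies in an annotated exon of Osmr, and the other stretches lie in no exon of the GENCODE M21 annotation. The starts are those of RefSeq. The Il11 and Socs3 stretches lie before such a start but inside the GENCODE M21 spans of their genes. A match is a description of letters and not of binding, and a window without one says nothing about a factor.

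Il11 and Osmr rose in DKO tumours and Socs3 fell, among 8 members with enough reads to be tested. Il11, with 6 to 11 reads in each WT intestine, was 14.2-fold higher, Osmr was 2.63-fold higher and Socs3 was 1.445-fold lower. Lif, Il6ra, Il11ra1, Il6st and Stat3 did not pass the threshold, a Benjamini-Hochberg adjusted p under 0.05 over all genes tested with edgeR. The 3 calls are 37.5% of the tested members, beside 29.7% of all 13866 genes tested, a share near that background. By direction, 15.9% of all genes were called higher and 13.8% lower. The groups did not overlap in 5 of the 8 members (62.5%), against 48% of all genes. Every tumour was above every WT library in 4 of them and below in 1, beside 25.1% and 22.9% of all genes. The median log2 fold change of the tested members was 0.38, beside 0.016 over all genes tested. Il11 reached 10 reads in only 1 WT library, so it passed the filter on low counts through the tumours.

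**Figure D1:**
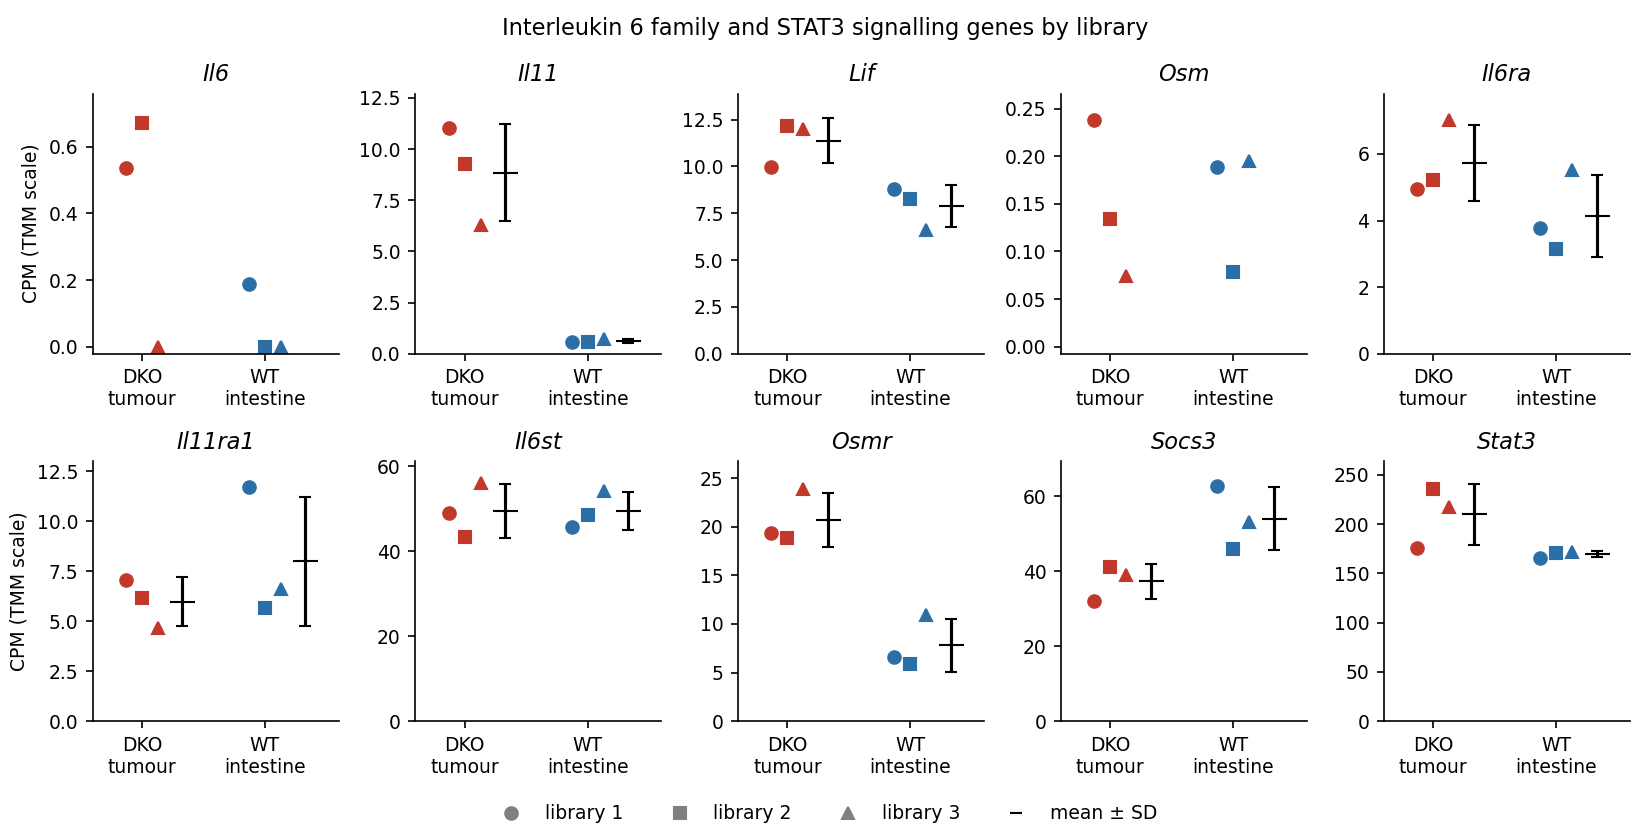
Level of each of the 10 genes in CPM (y axis, linear, a scale of its own for each gene) in the 3 DKO tumour libraries (red, left) and the 3 WT intestine libraries (blue, right), with the mean and SD beside the points for the 8 tested genes. For Il11, Lif, Osmr and Stat3 every tumour lies above every WT library, and for Socs3 every tumour lies below.

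Among the ligands, Il11 stood at 11.01, 9.25 and 6.29 CPM in the DKO tumours and at 0.566, 0.55 and 0.714 CPM in the WT intestines. These levels rest on 185, 138 and 85 reads in the tumours and on 6, 7 and 11 reads in WT intestine. The groups did not overlap, and DKO tumour 3 was the lowest tumour. The log2 fold change of DKO tumour over WT intestine was 3.83 (SE 0.318, edgeR adjusted p = 0.000288), and it stayed between 3.64 and 4.02 when any 1 library was left out. Interleukin 11 is a cytokine of stromal and epithelial cells that acts on cells with its alpha receptor. The gene lies on the minus strand of chromosome 7, from 4772373 to 4782859 on mm10. The upstream 200 bases of the window with the AP-1 core are shown because this gene carries the largest change of the 8 tested members. They open the window and end 50 bases before its RefSeq start. That start lies inside the annotated span of Il11, so the stretch lies within the gene body and not before the whole gene.
Il11 upstream, chr7:4778192-4778391, minus strand: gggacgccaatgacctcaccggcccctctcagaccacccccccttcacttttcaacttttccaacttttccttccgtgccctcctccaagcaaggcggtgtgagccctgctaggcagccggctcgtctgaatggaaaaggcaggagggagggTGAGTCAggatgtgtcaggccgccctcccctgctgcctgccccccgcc

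Lif, a ligand of the LIF receptor and gp130, was at 9.99, 12.1 and 12.0 CPM in the DKO tumours and at 8.78, 8.25 and 6.62 CPM in the WT intestines. The groups did not overlap, but the nearest libraries lay close to each other, at 9.99 CPM in DKO tumour 1 and 8.78 CPM in WT intestine 1. The log2 fold change was 0.53 (SE 0.189, edgeR adjusted p = 0.067), so the difference did not pass the threshold. It did pass with upper-quartile scaling (0.62, adjusted p = 0.0363) and with library totals (0.79, adjusted p = 0.0129).

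Il6 and Osm had too few reads to be tested. Il6, the ligand that names the family, had 9, 10 and 0 reads in the DKO tumours and 2, 0 and 0 reads in the WT intestines. Its reads in the tumours came from DKO tumours 1 and 2, and DKO tumour 3 was at 0 like WT intestine 2 and 3. A count of 0 allows up to 0.222 CPM in DKO tumour 3, 0.236 CPM in WT intestine 2 and 0.195 CPM in WT intestine 3. Pooled over libraries, 19 reads in the tumours against 2 in WT intestine gave a ratio of 8.14, with a 95% exact (Clopper-Pearson) interval of 1.96 to 72.0 that covers counting error only. With no filter on low counts, the edgeR adjusted p of Il6 was 0.184. Osm, a ligand made by myeloid and T cells, had 4, 2 and 1 reads in the DKO tumours and 2, 1 and 3 reads in the WT intestines. Its pooled ratio was 0.999 with an exact interval of 0.287 to 3.599, so a difference was not detectable at this depth.

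Of the receptor chains, Osmr was at 19.3, 18.8 and 23.8 CPM in the DKO tumours and at 6.61, 5.89 and 10.9 CPM in the WT intestines. Every tumour was above every WT library, and library 3 was the highest of its group on both sides. The log2 fold change was 1.40 (SE 0.257, edgeR adjusted p = 0.00657), between 1.23 and 1.74 when any 1 library was left out. The oncostatin M receptor is found mainly on stromal, endothelial and epithelial cells, and its gene lies on chromosome 15 from 6813577 to 6874969.

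Il6st, which encodes the shared chain gp130, was at 49.0, 43.4 and 56.0 CPM in the DKO tumours and at 45.6, 48.5 and 54.2 CPM in the WT intestines. The ranges overlapped throughout, and the log2 fold change was -0.0001 (SE 0.144, edgeR adjusted p = 1.000), with a sign that turns with the scaling. Il6ra, the alpha receptor of interleukin 6, was at 4.94, 5.23 and 7.03 CPM in the DKO tumours and at 3.78, 3.14 and 5.51 CPM in the WT intestines. Its groups overlapped through WT intestine 3, and the log2 fold change was 0.46 (SE 0.276, edgeR adjusted p = 0.241). An antisense gene model overlaps Il6ra, and the strand setting of the counts is not given in the sources used here.

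Il11ra1, the alpha receptor of interleukin 11, was at 7.08, 6.17 and 4.66 CPM in the DKO tumours and at 11.7, 5.66 and 6.62 CPM in the WT intestines. WT intestine 1 stood above the other 5 libraries, which shared 1 range. The log2 fold change was -0.41 (SE 0.31, edgeR adjusted p = 0.346) and did not pass the threshold, and it was -0.04 without WT intestine 1. The value is uncertain, because the near-identical copy Il11ra2 is listed at 0 in all 6 libraries and because 6 other annotated genes overlap the Il11ra1 locus.

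Stat3 was at 176, 236 and 218 CPM in the DKO tumours and at 166, 171 and 172 CPM in the WT intestines. The groups did not overlap, but DKO tumour 1 lay just above WT intestine 3. The log2 fold change was 0.31 (SE 0.15, edgeR adjusted p = 0.155), which did not pass the threshold, and it did with library totals (0.56, adjusted p = 0.0277). Stat3 overlaps Stat5a on the opposite strand. RNA levels say nothing of the phosphorylated form through which STAT3 acts.

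Socs3, the feedback inhibitor, was at 32.1, 41.1 and 38.9 CPM in the DKO tumours and at 62.8, 46.0 and 53.2 CPM in the WT intestines. Every tumour was below every WT library, with DKO tumour 2 and WT intestine 2 the nearest to each other. The log2 fold change was -0.53 (SE 0.164, edgeR adjusted p = 0.0434). The call is a narrow one. It ended without any 1 of the 6 libraries (adjusted p = 0.0553 to 0.112), and with library totals the log2 fold change was -0.27 (adjusted p = 0.207). Socs3 lies on chromosome 11 from 117966079 to 117970047.

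**Figure D2:**
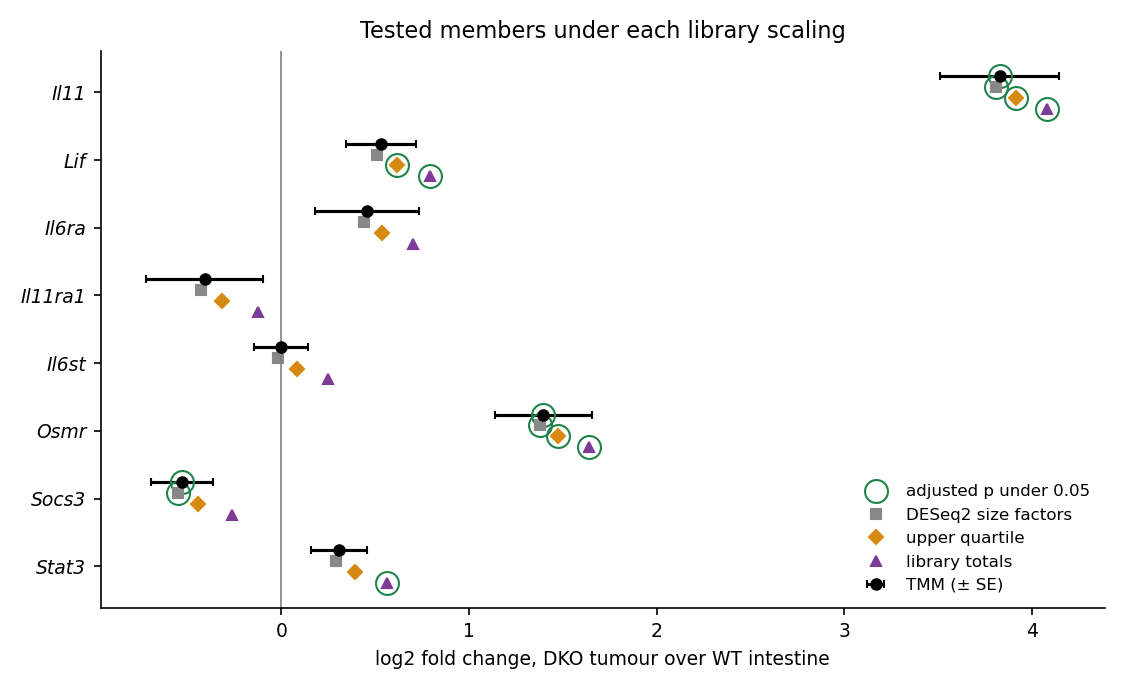
Log2 fold change of DKO tumour over WT intestine (x axis) for the 8 tested genes under 4 ways of scaling the libraries, with the SE of the TMM fit as bars and a green ring around values with an adjusted p under 0.05. Il11 and Osmr are ringed under all 4, Socs3 under TMM and DESeq2 size factors, Lif under upper quartile and library totals, and Stat3 under library totals.

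Ratios of genes within a library do not depend on the scaling between libraries. They were chosen after the values were seen and carry no test. Reads per base of Socs3 were 60.2%, 57.4% and 58.9% of those of Stat3 in the DKO tumours and 124.7%, 88.8% and 102.2% in the WT intestines. The tumours lay within a few percentage points of each other and below every WT library. Osmr was at 36.2%, 39.8% and 39.0% of Il6st per base in the DKO tumours and at 13.3%, 11.1% and 18.4% in the WT intestines, again with no overlap. Il11 was at 230.2%, 159% and 109.7% of Lif per base in the DKO tumours and at 13.5%, 13.9% and 22.5% in the WT intestines. Il11 was thus above Lif in each tumour and below it in each WT library.

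**Figure D3:**
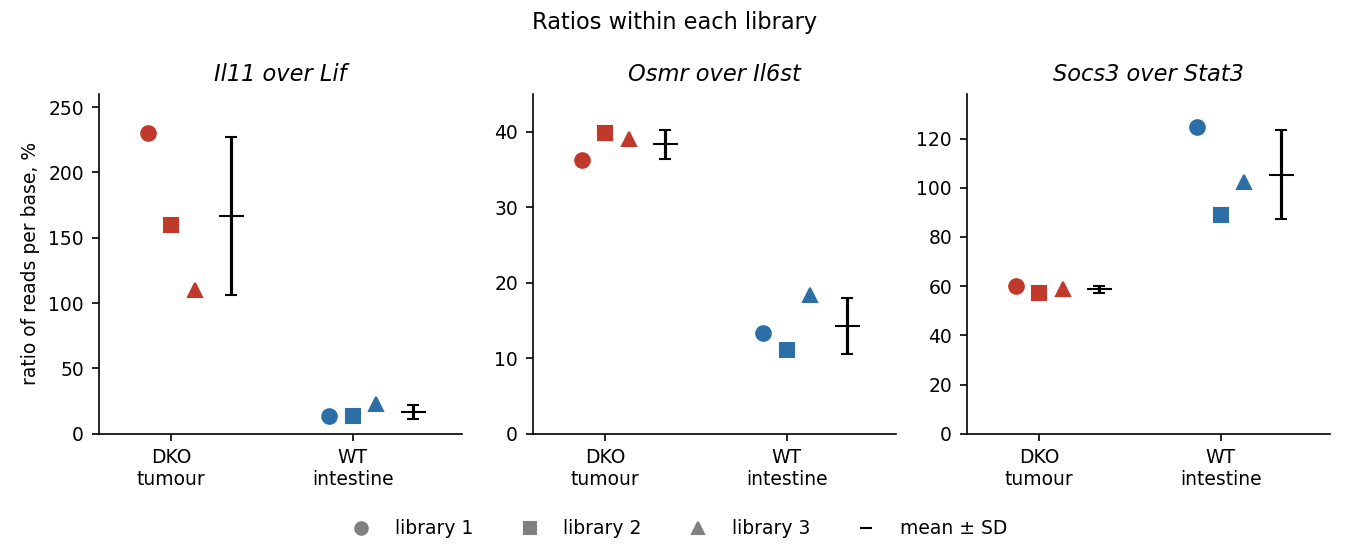
Ratio of reads per base of exon, in percent (y axis), of Il11 to Lif, Osmr to Il6st and Socs3 to Stat3 in each DKO tumour library (red, left) and WT intestine library (blue, right), with mean and SD. The groups do not overlap in any of the 3 ratios, and the Socs3 ratio of the tumours lies between 57.4% and 60.2%.

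Levels per kilobase of exon (CPM per kilobase, on GENCODE M21 exons) give the order of the members. In DKO tumours the order was Stat3 at 22.03 (SD 3.24, n = 3), Socs3 at 12.9 (SD 1.62), Il6st at 4.46 (SD 0.571), Il11 at 4.25 (SD 1.15), Lif at 2.615 (SD 0.275), Osmr at 1.71 (SD 0.227), Il11ra1 at 1.335 (SD 0.273), Il6ra at 0.663 (SD 0.131), Il6 at 0.166 and Osm at 0.0654. The library ranges of the neighbours Il6st and Il11, Osmr and Il11ra1, and Il6 and Osm overlapped there. In WT intestine the order was Socs3 at 18.7 (SD 2.90, n = 3), Stat3 at 17.8 (SD 0.323), Il6st at 4.45 (SD 0.396), Lif at 1.81 (SD 0.259), Il11ra1 at 1.79 (SD 0.727), Osmr at 0.644 (SD 0.223), Il6ra at 0.479 (SD 0.142), Il11 at 0.293 (SD 0.0433), Osm at 0.0678 and Il6 at 0.0259. The neighbours Socs3 and Stat3, Lif and Il11ra1, Osmr and Il6ra, and Osm and Il6 overlapped. Il11 was the ligand with the highest level per kilobase in each tumour, and Lif in each WT library.

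The tested genes with the pattern most like that of Il11 over the 6 libraries were Plat, 9230102K24Rik, Paqr8, Omp and Macc1, with a root mean square difference of centred log2 CPM between 0.189 and 0.260. Of these, 9230102K24Rik averaged 0.902 CPM in DKO tumours and 0 CPM in WT intestine, with a fitted log2 fold change of 6.68. At such low counts its place depends on the small count added before the log. Plat, the tissue plasminogen activator gene, averaged 45.8 CPM in DKO tumours and 3.47 CPM in WT intestine. The genes most like Osmr were Plxdc2, Fcgr1, Tma16, Man1c1 and Wdr60, with a difference between 0.102 and 0.171. Plxdc2 averaged 5.24 CPM in DKO tumours and 1.90 CPM in WT intestine. The measure includes the difference between the groups.

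Around the 10 members, 91 other genes of the pathway were grouped in 8 lists. Of the 73 with enough reads, 18 rose and 13 fell, which is 42.5% changed, against 29.7% of all genes tested. By direction, 15.9% of all genes tested were called higher and 13.8% lower, shares that stand beside the counts of each list below. The count of 31 was 19 without DKO tumour 3, when 2060 genes of all changed instead of 4122. It was 21 without WT intestine 2, when 2231 of all changed. Of the 31, 7 had 10 reads in every tumour but not in every WT library and 2 the reverse. They passed the filter on low counts through the group where they were high, which favours a difference in such genes.

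Clcf1, a ligand that reaches gp130 through the CNTF receptor, was the 1 of 4 tested further ligands that changed. Its level was 2.97, 5.83 and 2.15 CPM in the DKO tumours and 0.85, 0.707 and 1.23 CPM in the WT intestines. It passed the filter through the tumours. The groups did not overlap, and the log2 fold change was 1.95 (SE 0.451, edgeR adjusted p = 0.0158), a call lost without WT intestine 2 (0.0649). The further ligands had a median log2 fold change of 0.27. Of the further receptor chains, Lifr and Il27ra were tested and neither passed, with 0 of the 2 at an unadjusted p under 0.05 and 0 by DESeq2. Without DKO tumour 1, Il27ra, a receptor chain of interleukin 27, was called lower (-1.63, edgeR adjusted p = 0.0378). Lifr, the chain that pairs with gp130 for LIF, was at 15.3, 10.1 and 14.5 CPM in the DKO tumours and at 8.12, 14.6 and 19.4 CPM in the WT intestines, so its groups overlapped.

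Of 8 genes of the JAK and SHP2 relay, 3 fell and the median log2 fold change was -0.027. Jak2, a kinase bound to gp130 and to receptors of growth hormone and interferon gamma, was at 177, 179 and 174 CPM in the DKO tumours and at 428, 334 and 302 CPM in the WT intestines. All tumours lay in a narrow range below the WT libraries, at -1.005 on the log2 scale (SE 0.169, edgeR adjusted p = 0.00463). Gab1, an adaptor that docks SHP2, averaged 30.2 CPM (SD 1.36, n = 3) in DKO tumours and 51.5 CPM (SD 10.3, n = 3) in WT intestine (edgeR adjusted p = 0.013), a call lost without DKO tumour 3 (0.0582). Jak1, the main kinase of gp130, averaged 181 CPM (SD 12.4) in DKO tumours and 192 CPM (SD 13.2) in WT intestine and did not pass (edgeR adjusted p = 0.658).

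Of 11 other negative regulators, 3 fell and 2 rose, with a median log2 fold change of -0.38. DESeq2 called 8 of them, and 4681 of all 13866 genes, against 4122 with edgeR. The 5 edgeR calls were 3 without DKO tumour 3, WT intestine 2 or WT intestine 3, when 2060, 2231 and 2911 of all genes changed. Socs2 and Cish, SOCS family members known as STAT5 feedback genes, both fell. Socs2 was at 43.2, 34.2 and 30.5 CPM in the DKO tumours and at 79.1, 78.7 and 68.5 CPM in the WT intestines, a difference of -1.07 on the log2 scale (SE 0.161, edgeR adjusted p = 0.003). Cish averaged 7.46 CPM (SD 1.27, n = 3) in DKO tumours and 15.4 CPM (SD 1.86, n = 3) in WT intestine (log2 fold change -1.04, edgeR adjusted p = 0.00739). The third was Ptpn6, the phosphatase SHP1 of blood cells and epithelium, at -0.48 on the log2 scale (edgeR adjusted p = 0.0365), a call lost without any 1 library (0.0573 to 0.103), with no filter (0.0508), with upper-quartile factors (0.0635) and with library totals (-0.22, 0.254). Ptpn1, a phosphatase that acts on JAK2, rose by 0.76 (SE 0.148, edgeR adjusted p = 0.00827). Pias3, an inhibitor of STAT3 binding to DNA, rose by 0.70 (SE 0.181, edgeR adjusted p = 0.0236), and its call ended without DKO tumour 2 or 3 or WT intestine 2 or 3 (0.0561 to 0.0813).

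None of the 6 other STAT genes passed in edgeR, 2 had an unadjusted p under 0.05 and DESeq2 called 1. Stat4 was lower past the threshold by DESeq2 (adjusted p = 0.0215) and, in edgeR, without DKO tumour 1 (-2.07, adjusted p = 0.00388). Stat5a was higher past it in edgeR with library totals (0.74, adjusted p = 0.0167) and upper-quartile factors (0.57, adjusted p = 0.0475). The median log2 fold change of the 6 was -0.16. Of 5 genes listed under receptor shedding, which encode ADAM proteases and iRhom proteins, Adam9 and Rhbdf1 rose. Release of the interleukin 6 receptor was not measured. Adam9 averaged 106.5 CPM (SD 11.4, n = 3) in DKO tumours and 48.2 CPM (SD 8.94, n = 3) in WT intestine (log2 fold change 1.14, edgeR adjusted p = 0.00291). Rhbdf1, which encodes the ADAM17 partner iRhom1, averaged 35.6 CPM (SD 6.18) in DKO tumours and 15.4 CPM (SD 2.64) in WT intestine (log2 fold change 1.21, edgeR adjusted p = 0.00355). Adam17 and Adam10 did not pass, with log2 fold changes of -0.0107 and 0.0061.

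Of 13 genes of other cytokines linked to STAT3 and of their receptors, 6 could be tested, and 3 fell and 1 rose. Il22ra2, a soluble receptor that captures interleukin 22, had no read in any tumour and was at 5.10, 5.89 and 6.81 CPM in the WT intestines. Against a floor of 3 reads over the 3 tumours, it was at least 91.1-fold lower in DKO tumours (edgeR adjusted p = 0.000394), from 234 WT reads, through which alone it passed the filter. Il22ra1, the epithelial interleukin 22 receptor chain, averaged 153 CPM (SD 44.7, n = 3) in DKO tumours and 272 CPM (SD 15.0, n = 3) in WT intestine. Its call (edgeR adjusted p = 0.0251) ended with library totals (0.0753) and without DKO tumour 3 or WT intestine 2 or 3 (0.0641 to 0.0897). Il10rb, the chain shared by receptors of interleukins 10 and 22, averaged 104.2 CPM (SD 8.72) in DKO tumours and 175 CPM (SD 62.3) in WT intestine (edgeR adjusted p = 0.047), and that call ended with 2 other scalings (0.0626 and 0.0967) and without any 1 tumour or WT intestine 2 (0.0702 to 0.132). Csf3r, the granulocyte colony-stimulating factor receptor of neutrophils, averaged 4.92 CPM (SD 1.26) in DKO tumours and 1.70 CPM (SD 1.00) in WT intestine (edgeR adjusted p = 0.029), and that call ended without DKO tumour 1 or 3 or WT intestine 1 or 2 (0.0642 to 0.101). Csf3r had a log2 fold change of 1.502, and of 2.14 without WT intestine 3. The list's 4 calls were 1 without DKO tumour 3 or WT intestine 2 and 2 without DKO tumour 1. Of all genes, 2060, 2231 and 4497 changed without these libraries in turn. Its median log2 fold change was -0.79, also with Il22ra2 at its bound.

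**Figure D4:**
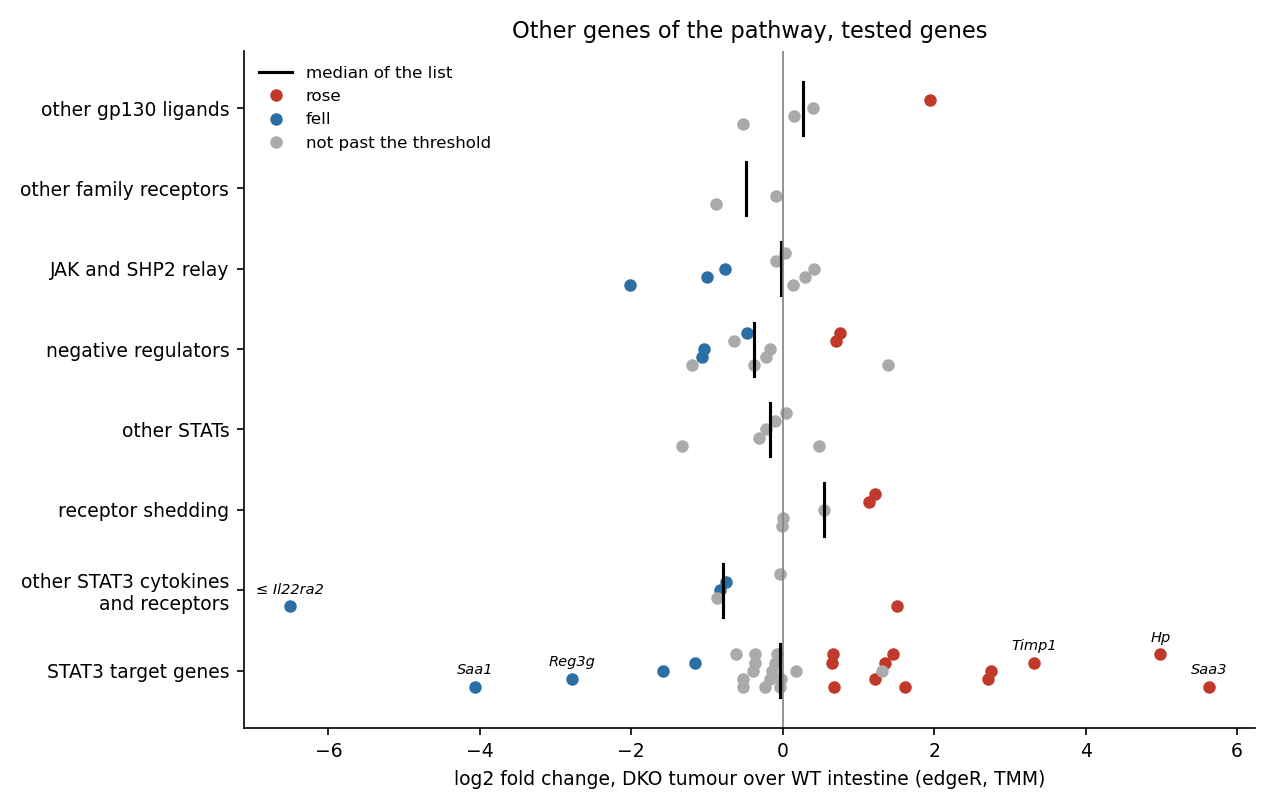
Log2 fold change of DKO tumour over WT intestine (x axis) for each tested gene of the 8 pathway lists, with genes that rose in red, those that fell in blue and the rest in grey, and a black line at each list's median. Il22ra2 is drawn at its bound of 91.1-fold lower, and in the list of STAT3 target genes Saa3 and Hp lie farthest to the right while Saa1 and Reg3g lie farthest to the left.

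Among 36 genes known as STAT3 targets, 31 could be tested, and 12 rose and 4 fell. Without DKO tumour 3 the counts were 9 and 1, when 1177 of all 13866 genes rose and 883 fell. Beside the 12 and 4, 15.9% of all genes tested were called higher and 13.8% lower in the fit of all 6 libraries. Of the 12 rises, 6 passed the filter on low counts through the tumours. The median log2 fold change was -0.033, near that of all genes tested. Acute phase genes were among the rises, and those nearly absent from WT intestine entered the test only through the tumours. Saa3, an extrahepatic serum amyloid A, was at 16.2, 9.86 and 13.4 CPM in the DKO tumours and at 0.189, 0.314 and 0.259 CPM in the WT intestines (log2 fold change 5.63, SE 0.335, edgeR adjusted p = 0.000103). Hp, which encodes haptoglobin, was at 19.4, 29.4 and 41.2 CPM in the DKO tumours and at 0, 0.786 and 1.82 CPM in the WT intestines (log2 fold change 4.99, SE 0.677, edgeR adjusted p = 0.00194), and 6.13 without WT intestine 3. For both genes the groups were far apart.

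Icam1, a leukocyte adhesion molecule, averaged 15.7 CPM (SD 1.84, n = 3) in DKO tumours and 5.70 CPM (SD 0.479, n = 3) in WT intestine (log2 fold change 1.46, edgeR adjusted p = 0.00129). Lbp, which encodes the lipopolysaccharide binding protein, averaged 5.21 CPM (SD 0.827) in DKO tumours and 1.68 CPM (SD 0.327) in WT intestine (log2 fold change 1.62, edgeR adjusted p = 0.00404). Timp1, Lcn2, Lrg1 and Cp rose as well, with log2 fold changes of 3.32, 2.72, 2.747 and 1.36. Timp1, Lcn2 and Lrg1 passed the filter on low counts through the tumours. The rise of Lrg1 was not called without WT intestine 2 (edgeR adjusted p = 0.0613). It moved to 2.02 without DKO tumour 1 and 3.45 without WT intestine 3. The growth genes Ccnd1 and Myc rose by 0.68 and 0.66 (edgeR adjusted p = 0.0138 and 0.0153), calls that ended without DKO tumour 3 for Ccnd1 (0.0575) and without WT intestine 2 for Myc (0.0663).

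The epithelial antimicrobial genes Reg3g and Reg3b, from the same list, fell. Reg3g, a C-type lectin that kills Gram-positive bacteria, was at 896, 229 and 179.7 CPM in the DKO tumours and at 2973, 2271 and 3705 CPM in the WT intestines (log2 fold change -2.78, SE 0.614, edgeR adjusted p = 0.0134), and -3.87 without DKO tumour 1. Its relative Reg3b averaged 2080 CPM (SD 1104, n = 3) in DKO tumours and 6227 CPM (SD 1747, n = 3) in WT intestine (edgeR adjusted p = 0.029), a call lost without DKO tumour 3 or WT intestine 1 or 3 (0.0618 to 0.103). Tnfaip3, a brake on NF-kappaB, fell by 1.15 on the log2 scale (edgeR adjusted p = 0.0193), a call lost without DKO tumour 3 (0.0785). Saa1 had 10, 2 and 1 reads in the DKO tumours and 12, 10 and 189 reads in the WT intestines. It passed the filter on low counts through WT intestine. Its fall (-4.06 on the log2 scale, edgeR adjusted p = 0.0406) rested on WT intestine 3, without which it was -1.72 (0.151). The fall was not called without any 1 tumour either (0.0515 to 0.125, and -5.41 without DKO tumour 1).

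The summed markers of some cell types parted between the groups, whereas those of T cells, B and plasma cells and epithelium overlapped. The counts of markers called stand beside 15.9% of all genes tested called higher and 13.8% lower. Fibroblast markers rose in 6 of 8 genes and summed to 891 to 1308 CPM in DKO tumours, against 287.5 to 427 CPM in WT intestine. Endothelial markers rose in 4 of 6, at 98.8 to 146 CPM in DKO tumours and 50.9 to 72.2 CPM in WT intestine. Neutrophil markers rose in 3 of 4 tested genes (6 of 7 in the table), all 3 of which passed the filter only through the tumours. Their sums were 29.8 to 45.8 CPM in DKO tumours and 8.97 to 14.5 CPM in WT intestine. These cell types express Osmr, Il11 or Csf3r in other settings, and the part of the cell mix in those rises was not tested.

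Macrophage markers rose in 3 and fell in 1 of 8, with sums of 162 to 221 CPM in DKO tumours and 240.0 to 476 CPM in WT intestine. The lower sum in the tumours came from Mertk alone, at 69.5, 35.7 and 67.5 CPM in the DKO tumours and 375, 115 and 117 CPM in the WT intestines. Without Mertk, left out after the values were seen, the sums of the other 7 overlapped, at 127 to 152 CPM in DKO tumours and 101 to 138 CPM in WT intestine, and the median log2 fold change was 0.66, against 0.37 with it. Mast cell markers rose in 1 of 2 tested, a gene that passed the filter through the tumours, at 7.78 to 39.4 CPM in DKO tumours and 1.605 to 5.32 CPM in WT intestine. T cell markers rose in 1 and fell in 1 of 6, at 18.8 to 39.9 CPM in DKO tumours and 36.45 to 81.0 CPM in WT intestine. B and plasma cell markers rose in 1 of 4, at 954 to 3207 CPM in DKO tumours and 1470 to 1812 CPM in WT intestine. Smooth muscle markers fell in 4 of 6, at 427 to 661 CPM in DKO tumours and 743 to 1116 CPM in WT intestine. Epithelial markers rose in 1 and fell in 1 of 7. Their sums were 9991 to 14471 CPM in DKO tumours and 12627 to 16333 CPM in WT intestine. Epithelial transcripts were thus abundant in all libraries, which does not give the share of epithelial cells. None of the markers in the table was at 0 in all libraries.

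**Figure D5:**
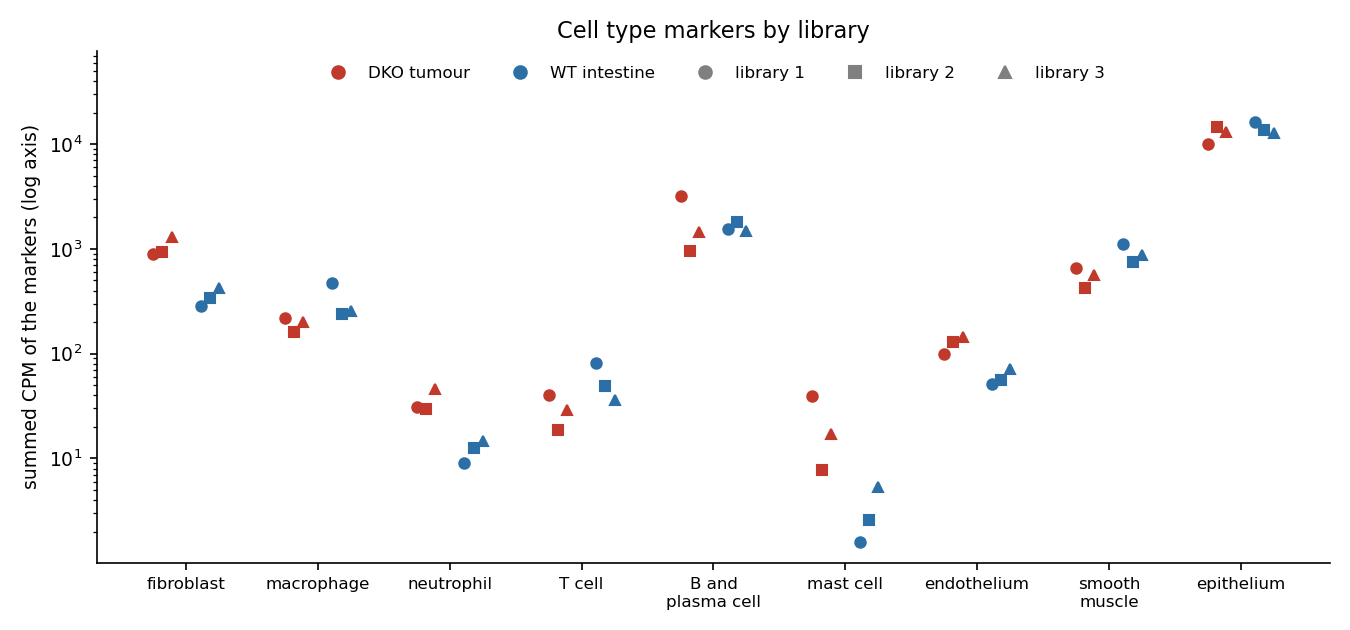
Summed CPM of the markers of 9 cell types (y axis, log scale) in each DKO tumour library (red, left of each pair) and WT intestine library (blue, right), with a symbol for each library number. Fibroblast, endothelial, neutrophil and mast cell sums are higher in every tumour than in any WT library, and macrophage and smooth muscle sums are lower, the macrophage sum through Mertk alone.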

How the data were processed

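Raw read counts per gene symbol, 1 column per library, were deposited by the authors as whole numbers. STAR, DESeq2 and the build mm10 are named in the submitters' processing notes, with read counter, annotation and strand setting not given in the sources used here. The sheet name refers to normal DKO tissue, whereas its columns are headed as DKO tumours, and the column headings were followed. Of 23420 rows, 27 were headed by a calendar date instead of a symbol (0.218% to 0.241% of a library's counts) and were set aside.

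Genes with at least 10 counts in 3 libraries (13866) were tested with edgeR 4.0.16 in R 4.3.3 (quasi-likelihood F test, TMM, Benjamini-Hochberg over all genes tested, threshold 0.05). The SE is the log2 fold change divided by the square root of F. Reads carried no molecular identifiers, so intervals and floors cover counting error only. Exon lengths and positions came from GENCODE M21 (mm10), and promoter sequences from RefSeq (GRCm38.p6).

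The members and lists were chosen with earlier results of these data known. Named were the 10 members, Prkci, Prkcz, up to 4 called genes of each list with the smallest adjusted p (1 of them is not reported here), and the 5 genes nearest to each of the 2 members with the smallest adjusted p. Jak1, Lifr, Il27ra, Stat4, Stat5a, Mertk, Il11ra2, Adam10, Adam17, Ptpn6, Timp1, Lcn2, Lrg1, Cp, Ccnd1, Myc, Reg3b, Reg3g, Saa1 and Tnfaip3 were named after their values were seen. Of 62 marker genes 61 were in the table, 2 list genes through a synonym. Alternatives were DESeq2 1.42.0, other scalings and filters, a replicate block and leaving out each library.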

Additional observations from a re-analysis of the deposited data

How the results depend on the processing

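Il11 and Osmr kept their direction and their call under every alternative run, namely DESeq2, 3 other scalings, 2 other filters, the replicate block and the removal of any 1 library. Over the removals their log2 fold changes were 3.64 to 4.02 and 1.23 to 1.74. Socs3 lost its call with library totals (-0.27), upper-quartile factors (-0.45), no filter (-0.52) and the replicate block (-0.53, adjusted p = 0.0983), and ranged from -0.63 to -0.42 over the removals. Lif was called with library totals (0.79) and upper-quartile factors (0.62), and Stat3 with library totals (0.56). Under library totals the median log2 fold change of all genes is 0.26 higher, with 3767 rises and 1071 falls, against 2211 and 1911 with TMM. Upper-quartile factors give 2678 and 1539. Il6st turned positive with library totals (0.25), upper-quartile factors (0.084), no filter (0.007) and a filter of 50 counts (0.0034), and ranged from -0.099 to 0.086 over the removals (0.0069, 0.0858 and 0.0818 without DKO tumour 1, DKO tumour 2 and WT intestine 3). The main value of Il6st was -0.0001, so small shifts turn its sign. The median of all genes shifted by 0.257 with library totals and by 0.085 with upper-quartile factors. Of all genes, 2060 to 4497 changed over the removals, of the members 2 each time, and of the pathway lists 19 to 31. Lif, Il6ra, Il11ra1 and Stat3 stayed uncalled over the removals.

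With the replicate number as a block, 3296 genes and 2 members changed, and Ptpn6 (adjusted p = 0.0718), Il10rb (0.0907) and Saa1 (0.076) lost their calls, while Stat4 was called lower (0.0394). Same-numbered libraries did not deviate together (correlations 0.0141, 0.0145 and -0.0311). With 3 libraries in each group these correlations cannot show whether the numbers mark a pairing, and the labels do not say. Of 233 refits of the 18 pathway genes chosen by rule, 21 lost the call and the rest kept it, and none turned in sign. DESeq2 called 8 of the 11 negative regulators, against 5 with edgeR, and 4681 of all 13866 genes, against 4122 with edgeR. Depth limits Il6 and Osm, which were tested only in the fit with no filter on low counts. Pooled without 1 library, the log2 ratio of Il6 was 2.29 to 3.54 (no ratio exists without WT intestine 1) and that of Osm -0.55 to 0.29.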
